A study of Mus musculus with 9 samples.

Results

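Angiopoietins are secreted ligands of the endothelial receptor tyrosine kinase Tie2, which the gene Tek encodes. Angpt1, made mainly by cells around vessels, activates Tie2 and keeps vessels quiet, whereas Angpt2 in many settings opposes that action and loosens vessels for remodelling. Tie1, the related second receptor, binds neither ligand strongly by itself and modulates Tie2. In the mouse retina Angpt2 is known from endothelial tip cells and from horizontal cells, and it is known as a gene that hypoxia and VEGF can raise. The system was described here as the 4 genes Angpt1, Angpt2, Tek and Tie1 of 19405 named genes on the array. Every probe carrying one of these symbols, or a synonym that leads to the same gene identifier, was taken, which gave 7 probes. A probe named Ang2 on the platform belongs to the gene identifier of an angiogenin family member, not to Angpt2. It was left out, and it was detected on 0 arrays.

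The study used the strain C57BL/6N and oxygen-induced retinopathy, with RNA from whole retinas. This is a model in which high oxygen stops and prunes growing retinal vessels and a return to room air leaves the tissue short of oxygen. The control group held normal P12 (postnatal day 12) mice, and the hyperoxic group held P12 mice taken straight from 75 ± 2% oxygen, where they had been for 5 days from P7. The hypoxic group had the same 5 days of oxygen followed by 12 hours in room air, which makes it P12.5. Each group had 3 Illumina bead arrays, each with RNA of the 2 retinas of 1 mouse. No normal P12.5 mice are among the 9 arrays, so differences at P12.5 cannot be told apart from the 12 hours of added age or the time of day. In whole retina, fewer cells of a type and less RNA per cell cannot be told apart.

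Levels are given as normalized log2 intensity (background corrected, with an offset of 16), and a probe counts as detected on an array where its detection p is under 0.05. Median intensity was 67.4 to 82.3 on 8 arrays and 163.6 on hyperoxic 1, and the share of probes detected was 30.6% on that array and 42.1% to 44.5% on the rest. The lowest detected level was 5.84 on hyperoxic 1 and 4.99 to 5.09 elsewhere. The summed level of 8 lens markers was 6638 on hypoxic 1 and 126.2 to 2906 on the other arrays. The 6 P12 arrays also carry a doubt about their labels. The ratios that the authors deposited have a median of exactly 1, in 100% of probes, over control 1, hyperoxic 2 and hyperoxic 3. Over the 3 arrays labelled control this held in 12.6%. Labels were kept and no array was renamed. Each comparison is also given for those 3 arrays, called here the ratio-reference P12 arrays, and for the other P12 arrays (control 2, control 3 and hyperoxic 1). The deposited detection p columns beside control 1, 2 and 3 followed the intensities of control 1, hyperoxic 2 and hyperoxic 3, the same set. Those beside hyperoxic 1, 2 and 3 followed control 2, control 3 and hyperoxic 1. Whether the labels or the ratio-reference division describes the treatment of the P12 mice was not tested.

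The data show 3 different pictures for the ligands and receptors. Angpt2 was the ligand that could be followed on every array, and its level was 0.41 to 0.42 log2 higher at P12.5 than at P12 in 5 comparisons that share the P12.5 arrays, a difference that passed the test in 1 of them and changed in size with the scaling. Tek was detected on the ratio-reference P12 arrays and on no other array. Angpt1 was detected nowhere and Tie1 on 1 array, so their levels have only upper limits on most arrays.

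Tek divided the P12 arrays, and Tie1 had the same order of the P12 sets but was detected on 1 array alone. The promoters of both receptors are shown because endothelial genes are known to be controlled through ETS factors. They are 250 bases before a transcript start listed in the RefSeq table for GRCm38.p6. Every ETS core (GGAA, or TTCC on the opposite strand) is in capitals. The Tek stretch is chr4:94739039-94739288 on the plus strand, and the annotated gene span is chr4:94739086-94874976. The stretch begins just ahead of that span, but most of it, with both ETS cores, lies inside. It is therefore not the sequence before the first annotated base of Tek. The Tie1 stretch is chr4:118489850-118490099 on the minus strand, directly before the gene span chr4:118471191-118489849.
Tek: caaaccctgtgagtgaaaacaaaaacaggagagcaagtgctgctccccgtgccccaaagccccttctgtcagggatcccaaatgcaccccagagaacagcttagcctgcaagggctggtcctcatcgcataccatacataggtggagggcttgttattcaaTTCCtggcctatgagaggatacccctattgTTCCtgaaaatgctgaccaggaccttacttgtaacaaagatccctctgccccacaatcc
Tie1: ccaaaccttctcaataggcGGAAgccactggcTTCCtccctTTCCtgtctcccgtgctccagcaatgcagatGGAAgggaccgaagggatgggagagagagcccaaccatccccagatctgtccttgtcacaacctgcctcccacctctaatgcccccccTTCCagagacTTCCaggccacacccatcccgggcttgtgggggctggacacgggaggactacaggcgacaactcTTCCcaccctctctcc
The Tek stretch held 2 ETS cores and the Tie1 stretch held 7. Of 32851 mouse promoters of the same length, 93.4% held at least 1 and the median was 3, while 3.82% held as many as Tie1 and 76.8% as many as Tek. The hypoxia response core ACGTG occurred in neither stretch on either strand (16.6% of promoters hold it). The same was true of the GATA core GATAA (22.6%) and the FOXO site GTAAACA (3.17%). No match says only that these letters are absent from these windows. Angpt2 (chr8:18690263-18741562) and Angpt1 (chr15:42424667-42676977) are named without a promoter.

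Among the ligands, Angpt2 gave the only member probe that passed the filter of detection on all arrays of a labelled group, and it was detected on all 9 arrays. Its level was 6.83, 6.97 and 6.60 on control 1 to 3, 6.83, 6.73 and 6.79 on hyperoxic 1 to 3, and 7.24, 7.24 and 7.13 on hypoxic 1 to 3. The 3 P12.5 arrays were all above the 6 P12 arrays, while the control and hyperoxic arrays lay among each other. A gap of this kind in this direction was found for 6.91% of the 19620 tested probes. Group means were 6.80 ± 0.19 (SD, n = 3) in control, 6.78 ± 0.05 in hyperoxic and 7.20 ± 0.07 in hypoxic retinas.

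The deposited ratios of Angpt2 showed the same order. They were 0.997, 1.06 and 0.893 in control, 0.683, 1.06 and 1 in hyperoxic, and 1.34, 1.24 and 1.26 in hypoxic retinas. In raw intensity the order broke at 1 array. Hyperoxic 1, the array that was bright throughout, read 239.1, above the 218 to 226.3 of the P12.5 arrays, and the other P12 arrays read 131.4 to 176. An exact two-sided permutation test of the 3 P12.5 arrays against the 6 P12 arrays gave p = 0.0238 for the log2 level and for the deposited ratio, the smallest value that 84 divisions allow. The same exact permutation test gave p = 0.0952 for raw intensity. The member was taken up with earlier results of these data known, so these p-values are a description of the arrays.

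Between hyperoxic and control retinas at P12, Angpt2 differed by -0.01 ± 0.12 log2 (SE; 95% interval -0.28 to 0.25; limma adjusted p = 0.98). Of all tested probes, 0% were called in this comparison, although 1872 had an unadjusted p under 0.05, and without hyperoxic 1 the calls were 565. Against hyperoxic retinas, P12.5 retinas had an Angpt2 level 0.42 ± 0.12 log2 higher, 1.34-fold (interval 0.16 to 0.68; limma adjusted p = 0.104). Against control retinas the difference was 0.41 ± 0.12, 1.33-fold (0.14 to 0.67; limma adjusted p = 0.104). Neither passed the threshold of 0.05, in comparisons where 1.69% and 1.83% of probes did. Without hyperoxic 1 both passed, at 0.44 with adjusted p = 0.0428 and at 0.41 with adjusted p = 0.029.

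Against all 6 P12 arrays the difference was 0.41 ± 0.10 log2, 1.33-fold (0.19 to 0.64), with a limma adjusted p of 0.0556 where 3.84% of probes were called. Of the 9 fits with 1 array left out, the one without hyperoxic 1 passed (0.43, limma adjusted p = 0.0154) and the other fits did not (up to adjusted p = 0.215). Against the ratio-reference P12 arrays Angpt2 was 0.42 ± 0.11 log2 higher, 1.34-fold, and rose past the threshold (limma adjusted p = 0.0465), as did 9.06% of probes in either direction. That call held in 3 of 9 fits with 1 array left out (0.40 to 0.46; adjusted p 0.0214 to 0.15), those without control 2, control 3 or hyperoxic 1. It was lost with the replicate number as a block (adjusted p = 0.0782). Against the other P12 arrays the difference was 0.41 ± 0.11 (limma adjusted p = 0.062; 6.23% of probes called). Between the ratio-reference and the other P12 arrays, where 3.91% of probes were called, it was -0.02 ± 0.11 (limma adjusted p = 0.946). The comparisons share the 3 P12.5 arrays, so their sizes are not independent. With median centring in place of the quantile step, the P12.5 difference was 0.53 against the ratio-reference arrays (limma adjusted p = 0.266) and 0.87 against the other P12 arrays (0.0189), and the P12 sets differed by 0.34 (0.374).

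**Figure D1:**
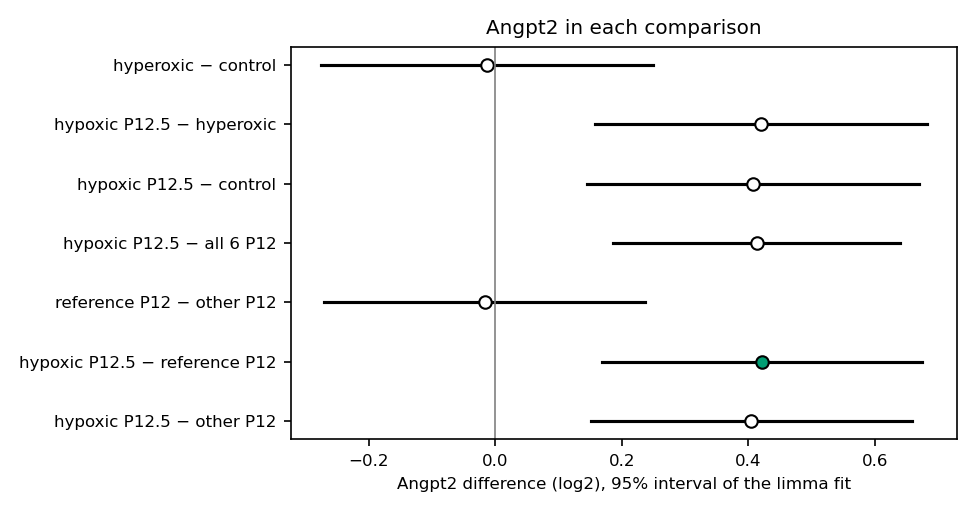
Difference of Angpt2 level (log2, horizontal axis) in the 7 comparisons, with points for the estimate, bars for the 95% interval of the limma fit and a filled point where the adjusted p is under 0.05. The 5 comparisons that involve P12.5 lie at 0.41 to 0.42, and both comparisons among P12 arrays lie at -0.02 and -0.01.

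A second Angpt2 probe was detected on 0 arrays. It read 4.45 to 4.72 on all of them, with a lowest detection p of 0.23, so it gives no second reading of the gene. Angpt1, the activating ligand, had 3 probes, and none was detected on any array. The brightest read 4.52 to 4.77, with 4.69 ± 0.07 in control, 4.65 ± 0.13 in hyperoxic and 4.62 ± 0.03 in hypoxic retinas (SD, n = 3 each). The other two lay at 4.35 to 4.63 and 4.31 to 4.58. The lowest detection p over all Angpt1 probes and arrays was 0.173. No fold is given for Angpt1, since it was not well above background in any group, and a ratio of the ligands cannot be formed from these arrays.

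**Figure D2:**
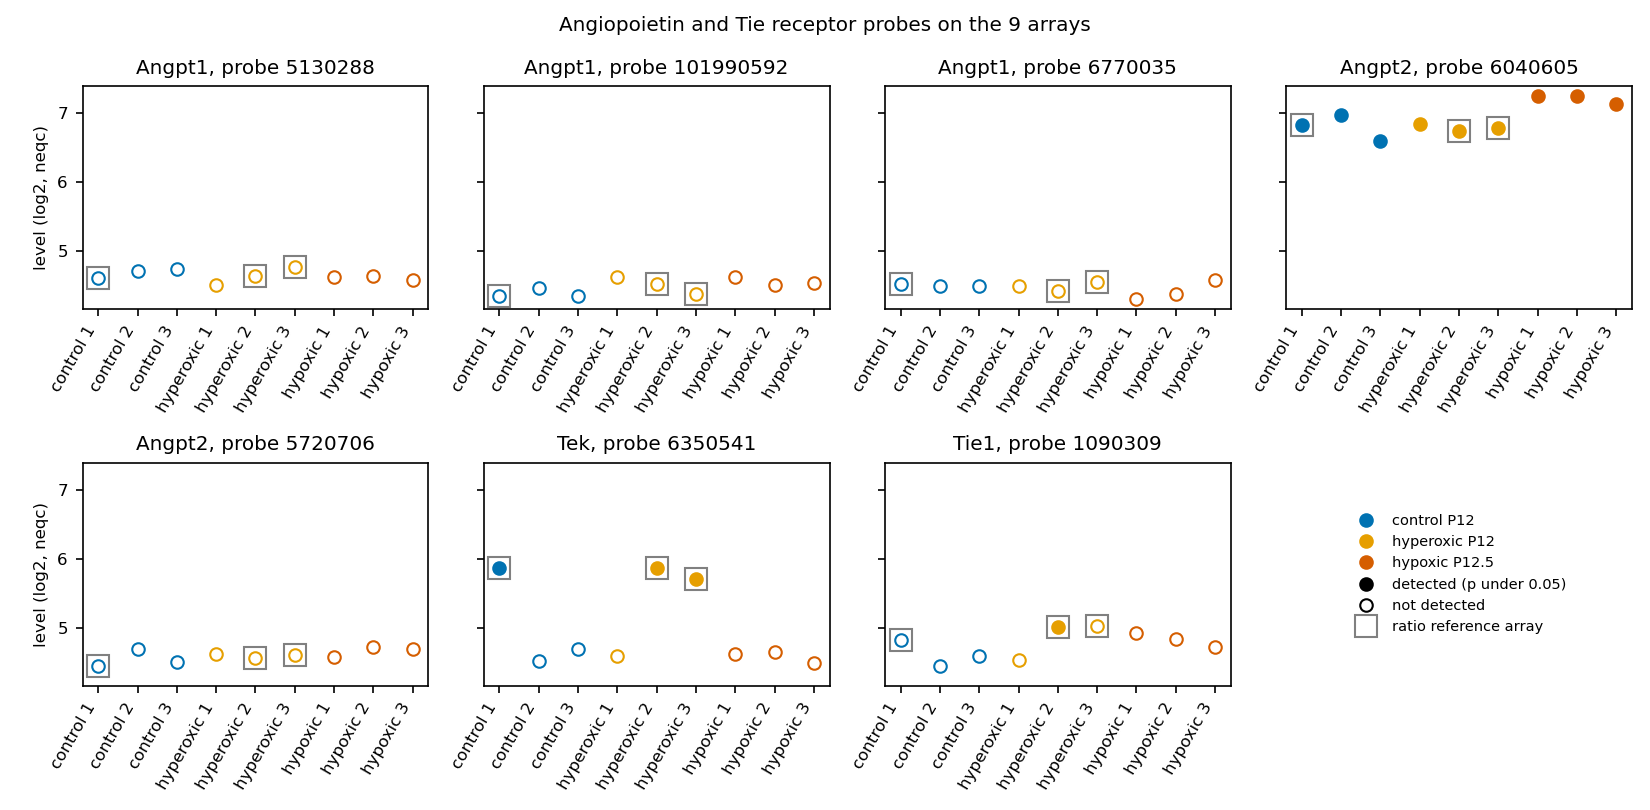
Level of each member probe (log2, vertical axis, the same scale in all panels) on the 9 arrays, coloured by labelled group. Filled points are detected (p under 0.05), open points are not, and squares mark the ratio-reference arrays. Angpt2 probe 6040605 is filled throughout and highest on the P12.5 arrays, Tek is filled only on the 3 squared arrays, and the Angpt1 probes stay near 4.31 to 4.77.

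Of the receptors, Tek was detected on 3 arrays, control 1, hyperoxic 2 and hyperoxic 3. These are the ratio-reference arrays, a set that was found from the ratios of all probes and not from Tek. Its level was 5.86, 4.52 and 4.68 on control 1 to 3, 5.86, 5.70 and 4.60 on hyperoxic 2, 3 and 1, and 4.62, 4.65 and 4.49 on hypoxic 1 to 3. The 3 detected values stood apart from the other 6. Of all 46613 probes, 8.61% were likewise higher on these arrays than on the other P12 arrays without overlap, and 10.8% were likewise lower at P12.5. The labelled groups were mixed: control and hyperoxic each held values from both levels. Raw intensity was 94.9 to 116.7 on the detected arrays and 57.6 to 75.3 on the others, except for 146.3 on hyperoxic 1. On that array the lowest detected level was 5.84, within the range of the detected Tek values, so Tek at their level might not have been detected there.

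By labelled group Tek was 5.02 ± 0.73 in control and 5.39 ± 0.69 in hyperoxic retinas (SD, n = 3), means over detected and undetected values. At P12.5 it was 4.59 ± 0.08 and not detected. It was measured on 2 of 3 hyperoxic and 1 of 3 control arrays, and the undetected P12 values, 4.52 to 4.68, lay among the 4.49 to 4.65 of P12.5. No fold is given between the labelled groups, since the means rest in part on undetected values.

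By the ratio-reference division the Tek values did not overlap. The mean was 5.81 ± 0.09 on the ratio-reference arrays (SD, n = 3), all of them detected, while the other P12 arrays (4.60 ± 0.08) and the P12.5 arrays were not well above background. Only a bound on the difference can therefore be given. It takes the mean of the ratio-reference arrays over the lowest level detected on each array of the dimmer group. Tek was at least 1.41-fold higher on the ratio-reference arrays than on the other P12 arrays, and at least 1.7-fold without hyperoxic 1. P12.5 retinas were at least 1.75-fold lower than the ratio-reference arrays. These bounds hold for the main normalization alone and carry no error. Without background correction the P12.5 difference from the ratio-reference arrays was -0.57 log2, a smaller fold than 1.75. The probe did not pass the filter for the labelled groups. In a fit on all 46613 probes, which sets the detected values against undetected ones, the limma adjusted p was 0.00111 between the P12 sets (1.21% of all probes called) and 2.27e-04 for P12.5 against the ratio-reference arrays (3.30% called). Neither p tests the size of the bound, and both take their spread from values that were mostly undetected. They give no support for a measured difference. No fold is given between P12.5 and the other P12 arrays.

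Tie1 was dimmer. It was detected on hyperoxic 2 alone, at a detection p of 0.0487, with hyperoxic 3 next at 0.0605. Its level was 4.83, 4.45 and 4.59 on control 1 to 3, 4.54, 5.01 and 5.03 on hyperoxic 1 to 3, and 4.92, 4.84 and 4.73 on hypoxic 1 to 3. The ratio-reference arrays (4.95 ± 0.11) were all above the other P12 arrays (4.52 ± 0.07), as were 8.61% of all probes. At P12.5 the mean was 4.83 ± 0.10. No difference is given, since 8 of the 9 values are not well above background.

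Ligand and receptor thus followed different divisions of the arrays. With the quantile step, Angpt2 was higher on each P12.5 array than on any P12 array and the P12 sets overlapped, whereas Tek was detected on the ratio-reference P12 arrays alone. Levels of different probes are not set against each other.

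Markers of endothelial cells, the cells that carry Tie2, moved with Tek. The list was chosen with earlier results known. Of 20 markers 19 had a named probe and 16 were tested. On the ratio-reference arrays 14 were higher than on the other P12 arrays, as were 2.34% of all tested probes, 0 were lower, and the median was 1.08 log2 against 0.03 for all tested probes. The count was 13 or 14 with any single array left out. Against the ratio-reference arrays 14 fell at P12.5, as did 4.64% of all tested probes, and 0 rose (median -0.82, all probes 0.01), with 10 to 14 falling when 1 array was left out and the fewest without hyperoxic 3.

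Pecam1, a junction protein of endothelial cells, was 1.47 ± 0.18 log2 higher on the ratio-reference arrays (limma adjusted p = 0.00295). Cdh5, the endothelial cadherin, was 1.38 ± 0.14 higher (limma adjusted p = 0.00101). The Pecam1 probe was not detected on hyperoxic 1 (5.68), and Cdh5 was not detected on control 2 (5.05) or hyperoxic 1 (5.20). Both differences therefore rest in part on undetected values. A second tested Pecam1 probe, detected on all 9 arrays, differed by 0.69. Kdr, the main VEGF receptor, differed by 0.01 ± 0.23, and Flt1, a second VEGF receptor, by -0.39 ± 0.11 (limma adjusted p = 0.0684). These 2 did not pass. The Kdr probe used was not detected on hyperoxic 1, and the Kdr probe of the RefSeq transcript was detected on 0 arrays. Pecam1 fell by 1.04 and Cdh5 by 1.09 from the ratio-reference arrays to P12.5. Between P12.5 and the other P12 arrays, 2 markers rose, Emcn by 0.89 and Robo4 by 0.74, 1 fell, Slco1c1 by 0.94, and 13 did not pass (6.23% of all tested probes were called). Without hypoxic 1 or without hypoxic 2, only Emcn passed.

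The mean level of the 16 tested markers was 7.55 to 7.66 on the ratio-reference arrays, 6.51 to 6.68 on the other P12 arrays and 6.74 to 6.82 at P12.5. The summed level of the 19 was 4570 to 4818, 2609 to 2880 and 2822 to 2863 in the same order. The lowest mean, 6.51, belonged to hyperoxic 1, where just 7 of the 19 markers passed detection. Each remaining array had at least 14 that passed. The mean of hyperoxic 1 therefore rests in part on undetected values. Control 2 and control 3 had means of 6.68 and 6.64. Clec14a and Erg were detected on 0 arrays. Markers of pericytes and vascular smooth muscle had means of 7.15 to 7.17, 6.15 to 6.47 and 6.37 to 6.48 (8 tested of 12 listed), and 5 of the 8 were higher on the ratio-reference arrays than on the other P12 arrays, as were 2.34% of all tested probes. The count was 3 without hyperoxic 2 or hyperoxic 3. The mean of 6.15 likewise came from hyperoxic 1 and rests in part on undetected values. Only 3 of the 11 markers with a probe passed detection there, and at least 7 did so on each remaining array. The part of vessel markers in the Tek difference was not tested. Between P12.5 and the 6 P12 arrays 0 of 16 endothelial markers rose and 1 fell, Slco1c1, where 3.84% of all tested probes were called. Without hyperoxic 1 the number that fell was 4, and it was 0 without control 1, control 3, hyperoxic 3 or any P12.5 array.

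**Figure D3:**
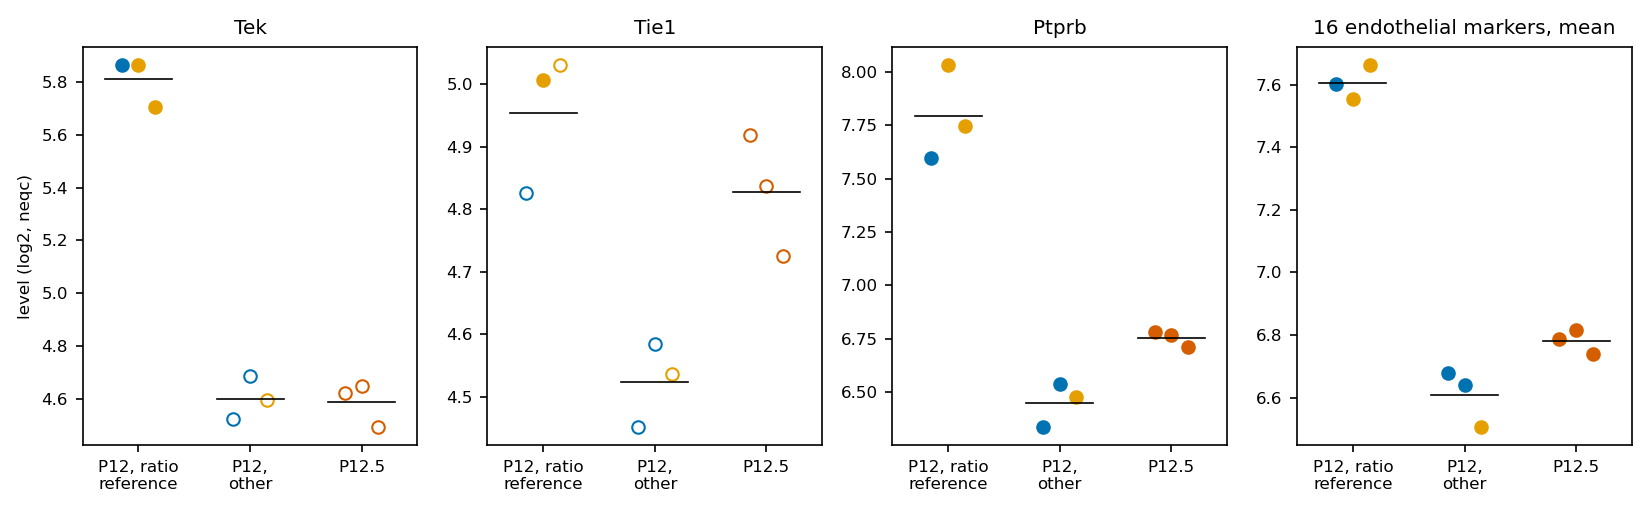
Levels (log2, vertical axis, a different scale in each panel) of Tek, Tie1, Ptprb and the mean of 16 endothelial markers on ratio-reference P12, other P12 and P12.5 arrays, with a line at each mean of 3 arrays. Colours give the labelled group (blue control, yellow hyperoxic, red hypoxic). Open points of Tek, Tie1 and Ptprb are not detected, and points of the marker mean are filled whatever the detection. Tek, Ptprb and the marker mean are high on the 3 ratio-reference arrays. The Tie1 mean at P12.5 lies between the means of both P12 sets, and its P12.5 values overlap those of the ratio-reference arrays.

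Horizontal cells, a known neuronal source of Angpt2 in the mouse retina, had 7 tested markers of 8 listed. Their mean level was 8.37 to 8.53 over the 9 arrays. At P12.5 against all P12 arrays 1 rose, Tpm3 by 0.48, 1 fell, Calb1 by 0.55, and 5 did not pass. Of all tested probes 3.84% were called there, and 2.27% were called higher. Both calls were lost without any 1 of the control or P12.5 arrays, and that of Calb1 also without hyperoxic 3. In the same comparison 1 of 3 astrocyte markers rose, 1 of 6 Muller glia markers fell, and 0 of 4 microglia and macrophage markers, 0 of 1 platelet marker and 0 of 7 lens markers passed. The summed level of the lens markers was 6638, 994.5 and 877.7 on hypoxic 1 to 3, against 126.2 to 464.2 on 5 P12 arrays and 2906 on hyperoxic 1. All 7 tested lens markers had a positive difference from the 6 P12 arrays (0.46 to 2.52 log2, median 1.76, all probes 0.02). The part of lens RNA in the Angpt2 difference was not tested.

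Around the receptors, the pathway list held 32 genes (further ligands and relatives, the phosphatase, adaptors, downstream enzymes, and regulators). Of these 31 had a named probe and 18 were tested. Between hyperoxic and control 0 passed, with a median of -0.02 (all probes -0.06). The lowest p-values there belonged to Pik3cb, a catalytic subunit of PI3 kinase, at -0.20, Nos3, the endothelial nitric oxide synthase, at 0.25, and Angptl4, an angiopoietin-like lipase inhibitor, at 0.20. At P12.5 against all 6 P12 arrays 2 rose (2.27% of all tested probes did), 0 fell and 16 did not pass (median -0.04, all probes 0.02), and the count of rises was 0 to 4 with 1 array left out.

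The receptor phosphatase Ptprb (VE-PTP), which removes phosphate from Tie2, followed Tek. Its level was 7.60, 6.34 and 6.54 on control 1 to 3, 6.47, 8.03 and 7.75 on hyperoxic 1 to 3, and 6.78, 6.77 and 6.71 on hypoxic 1 to 3. The ratio-reference arrays were all above every other array. Of all 46613 probes, 8.61% were likewise above the other P12 arrays, and 10.8% were likewise lower at P12.5. The difference from the other P12 arrays was 1.34 ± 0.12 log2 (limma adjusted p = 7.45e-04), and P12.5 was lower than the ratio-reference arrays by 1.04 ± 0.12 (difference -1.04, limma adjusted p = 9.86e-04). Both calls held with any 1 array left out. Unlike Tek, Ptprb was detected on all 9 arrays, so these differences are measured on both sides.

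Nos3, activated downstream of Tie2 through Akt, was the second gene of the list that was higher on the ratio-reference arrays. It differed by 0.43 ± 0.10 log2 from the other P12 arrays (limma adjusted p = 0.0377), where 2.34% of all tested probes were higher. A second tested Nos3 probe, detected on 9 arrays, differed by 0.31. Nos3 fell at P12.5 against the ratio-reference arrays (difference -0.39, limma adjusted p = 0.0299). The calls held in 2 and 4 of 9 fits with 1 array left out, with differences of 0.39 to 0.48 and -0.44 to -0.35. Losing control 2, control 3, hyperoxic 2, hyperoxic 3 or any P12.5 array ended the first. Losing hyperoxic 2, hyperoxic 3 or any P12.5 array ended the second. Klf2, an endothelial transcription factor that flow induces, stood at 0.65 ± 0.16 (limma adjusted p = 0.0536). Klf2 was not detected on control 2 or hyperoxic 1. The list's median was -0.02 between the P12 sets (all probes 0.03).

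Vegfa, the growth factor that hypoxia induces, was higher at P12.5 like Angpt2. Its level was 10.25, 9.61 and 9.98 in control, 9.68, 10.23 and 9.93 in hyperoxic, and 10.67, 10.72 and 10.56 in hypoxic retinas. P12.5 and P12 did not overlap, as for 6.91% of all tested probes in this direction. Against all 6 P12 arrays it rose by 0.70 ± 0.16 log2 (limma adjusted p = 0.0445), in 3 of 9 fits with 1 array left out (0.62 to 0.78). The call was lost without control 2, control 3, hyperoxic 3 or any P12.5 array. Against the ratio-reference arrays it rose by 0.51 ± 0.13 (limma adjusted p = 0.0412), lost without control 1, hyperoxic 2, hyperoxic 3 or any P12.5 array (0.41 to 0.57). Against the other P12 arrays it rose by 0.89 ± 0.13 (limma adjusted p = 0.00915), lost without hypoxic 1 or hypoxic 2 (0.82 to 1.01). Against the labelled groups it did not pass (adjusted p = 0.0897 for hyperoxic and 0.0841 for control).

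Hif1a, the oxygen-regulated subunit of HIF-1, rose in all 5 comparisons that involve P12.5. The difference was 1.64 ± 0.27 log2 against hyperoxic (limma adjusted p = 0.0225), 1.61 ± 0.27 against control (0.0227) and 1.62 ± 0.23 against all 6 P12 arrays (0.00865). Leaving out 1 array gave 1.31 to 1.93, 1.48 to 1.72 and 1.46 to 1.77. These calls were lost without hyperoxic 3 or any P12.5 array, without any control or P12.5 array, and without hypoxic 1 or hypoxic 3, respectively. It was 1.50 ± 0.25 against the ratio-reference and 1.75 ± 0.25 against the other P12 arrays, and these calls held in all 9 fits. The probe that gave these values has no transcript accession in the annotation. The Hif1a probe of the RefSeq transcript was detected on 0 arrays and differed by 0.05 from P12 to P12.5, and the third, detected on 2 arrays, by -0.06. The rise is therefore that of 1 probe, which was not detected on hyperoxic 1.

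The adaptor Grb2, which docks on phosphorylated Tie2, and the integrin subunit Itgav passed against the ratio-reference arrays and, with all 9 arrays kept, in no other comparison. There 4 genes of the list rose, 2 fell and 12 did not pass (median 0.06, all probes 0.01), where 9.06% of all tested probes were called and 4.64% were called lower. Grb2 rose by 0.40 ± 0.11 log2 (limma adjusted p = 0.0485), and the call was lost in 7 of 9 fits with 1 array left out (0.35 to 0.44), held only without control 3 or hyperoxic 1. Itgav rose by 0.60 ± 0.12 (limma adjusted p = 0.0127), a call lost without hypoxic 1 (0.54 to 0.64). That call is of the first of 3 tested Itgav probes. In another comparison, P12.5 against all P12 arrays, their differences were 0.41, -0.21 and 0.52, so the second went the other way. The remaining probes are not given against the ratio-reference arrays. Angptl4 was lower at P12.5 by 0.35 ± 0.10 than on all P12 arrays (difference -0.35, limma adjusted p = 0.0838) and fell past the threshold without hyperoxic 1. Mmp14, a membrane protease, differed by -0.31 between P12.5 and control (limma adjusted p = 0.232).

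Several pathway genes gave no test. Angpt4, the third angiopoietin, was detected on 3 arrays. Svep1, a matrix ligand of Tie1, was detected on 1, and Lect2, another reported ligand of Tie1, on 0. The transcription factors Ets1 and Epas1, the integrin subunit Itga5, the adaptor Nck1 and the PI3 kinase subunit Pik3ca were detected on 0 arrays.

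**Figure D4:**
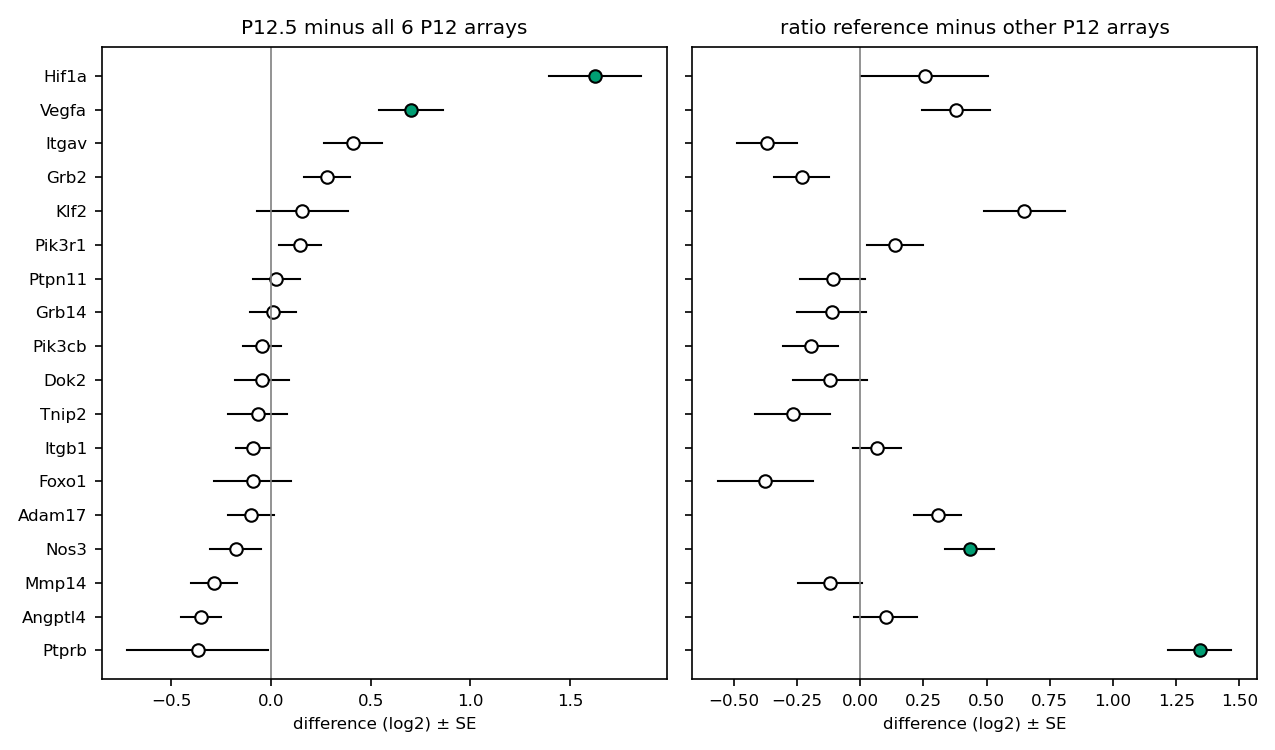
Differences (log2, horizontal axis, with SE bars) of the 18 tested pathway genes between P12.5 and all 6 P12 arrays (left) and between ratio-reference and other P12 arrays (right); filled points have an adjusted p under 0.05. Hif1a and Vegfa are filled on the left, Ptprb and Nos3 on the right.

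The genes whose level over the 9 arrays was most like that of Angpt2, among 10947 named genes with a tested probe, were Psme3ip1 (Pearson r = 0.966), Cnep1r1 (0.957) and Slc1a4 (0.952). Psme3ip1 encodes a partner of a proteasome activator, Cnep1r1 a subunit of a nuclear envelope phosphatase, and Slc1a4 a transporter of neutral amino acids. Of the 3, Slc1a4 passed the test at P12.5 against all P12 arrays, at 0.92 ± 0.11 log2 (limma adjusted p = 0.00365). Cnep1r1 differed by 0.36 ± 0.11 (limma adjusted p = 0.104) and Psme3ip1 by 0.19 ± 0.09 (0.224). All points share the gap between P12.5 and P12. By deviations from the labelled group means, which remove that gap, the most alike were the DNA repair nuclease subunit Eme1 (r = 0.965), the transporter Abcc10 (0.95) and the potassium channel subunit Kcns1 (0.95). Their Spearman rank correlations were lower, at 0.717, 0.85 and 0.817. These are descriptions of 9 arrays.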

How the data were processed

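RNA of 9 retinal samples was measured on Illumina bead arrays, and per the labels' protocols cRNA was made with an Ambion labelling kit. Neither scanner software nor background treatment is given in the sources used here. A linear intensity per probe and array was deposited by the authors, with no sign of normalization in its values. The deposited p-value columns, which per the file headers are detection p-values, were matched to the array whose intensities each follows, since 5 of 9 were not beside it. The deposited ratio table, whose scaling is unknown, was used as an alternative and to find the arrays that the authors divided by (all 84 sets of 3 arrays were tried, within 0.0015).

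The table has 46640 probes, of which 27 read 0 throughout and were dropped. Symbols came from the platform annotation through gene identifiers. Of the 46613 probes left, 32781 had 1 symbol, 55 several and 13777 none. Intensities were normalized with neqc in limma 3.58.1 (R 4.3.3; offset 16, quantile), which understates fold changes of dim probes. The 19620 probes that every array of some labelled group detected (p under 0.05) were tested with lmFit and eBayes, two-sided, with Benjamini-Hochberg adjustment over all of them. All adjusted p-values come from limma. The pipeline was tested on simulated data. The number of arrays limits the precision.

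The most intense probe stands for a gene. Named are the members, pathway genes that passed (at most 6, or the 3 of lowest p), Pecam1, Cdh5, Kdr and the genes most like Angpt2. Other markers and pathway genes were named after their values were seen. The members and lists were chosen with earlier results of these data known. The alternatives tried were median centring, no background correction, a larger offset, the deposited ratios, other filters, a replicate block, array weights, another variance model, fewer samples and each array left out. Replicate numbers did not pair the arrays.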

Additional observations from a re-analysis of the deposited data

How the results depend on the processing

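The P12.5 difference of Angpt2 kept its sign under every alternative run, at 0.26 to 0.87 log2, but its side of the threshold moved. Against hyperoxic it passed with array weights (0.43, limma adjusted p = 7.7e-04), and against control with array weights (0.42) and with the compared groups alone (0.41). Against all 6 P12 arrays it passed without background correction (0.26), with an offset of 50 (0.33), a detection p under 0.01 (0.41) and array weights (0.43). Against the other P12 arrays it passed with median centring (0.87), an offset of 50 (0.32), a detection p under 0.01 (0.41) and array weights (0.37). Against the ratio-reference arrays it failed with median centring (0.53), the deposited ratios (0.33) and no filter (0.42, limma adjusted p = 0.0545). Between the P12 sets its sign turned with median centring (0.34) and the deposited ratios (0.24), where the median of all probes was 0.26 and 0.22. For P12.5 against all P12 arrays median centring put Angpt2 at 0.70 and all probes at 0.24. The cause of these moves was not tested.

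Replicate numbers are shared by the groups, but same-numbered arrays did not deviate together (r = -0.34 to 0.11 over 9 pairs, against -0.12 to 0.31 over 18 other pairs). With the replicate block Angpt2 stayed at 0.42 against the ratio-reference arrays and lost its call (limma adjusted p = 0.0782). It was at 0.42 against hyperoxic (0.183), 0.41 against control (0.177), 0.41 against all P12 arrays (0.113) and 0.41 against the other P12 arrays (0.0883).

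With 1 array left out, Angpt2 ranged from -0.11 to 0.072 between hyperoxic and control and from -0.12 to 0.066 between the P12 sets. It ranged from 0.39 to 0.46 against hyperoxic, 0.31 to 0.49 against control, 0.36 to 0.46 against all P12 arrays, 0.40 to 0.46 against the ratio-reference and 0.30 to 0.49 against the other P12 arrays. Tek ranged from 1.17 to 1.26 between the P12 sets, -1.28 to -1.18 against the ratio-reference and -0.05 to 0.03 against the other P12 arrays. By label it ranged from 0.11 to 0.78 between hyperoxic and control, -1.20 to -0.56 against hyperoxic, -0.69 to -0.02 against control and -0.82 to -0.41 against all P12 arrays. Tek between the P12 sets was 0.56 without background correction, 0.63 with an offset of 50 and 0.69 with the deposited ratios, and against the ratio-reference arrays -0.57, -0.63 and -0.71. These Tek values set detected against undetected arrays and are no measured sizes.

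Called probes numbered 332, 360 and 753 for P12.5 against hyperoxic, control and all P12 arrays, 768 between the P12 sets, and 1777 and 1223 for P12.5 against the ratio-reference and other P12 arrays. They fell to 21, 14, 26, 33, 76 and 25 with the deposited ratios and reached 8627, 4206, 6355, 2188, 4094 and 3929 with array weights, which also called 6216 between hyperoxic and control against 0. With median centring the share of higher calls was 98.4%, 100%, 98.1%, 95.8%, 71.9% and 99.6%, against 66.6%, 67.8%, 59.1%, 59.9%, 48.7% and 67.7%. The detection limit leaves Angpt1, Tie1 and Tek without a measured difference.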

Other observations

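Angiopoietin-like genes, relatives that do not bind Tie2, were looked up by name after values were seen. Of 4 such genes with 6 probes, 2 were tested. Angptl4 differed by -0.35 ± 0.10 log2 between P12.5 and all P12 arrays (limma adjusted p = 0.0838) and by 0.10 ± 0.12 between the ratio-reference and other P12 arrays (limma adjusted p = 0.658). Angptl6 differed by -0.25 ± 0.11 (limma adjusted p = 0.233) and 0.02 ± 0.13 (limma adjusted p = 0.934). The probes of Angptl1 and Angptl7 were detected on 0 arrays.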
